A study of Gallus gallus with 6 samples.

Results

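The comparison described here sets leg muscle taken 1 day after hatching (P1 in the sample labels, called D1 in the study's text) against leg muscle of the embryo at day 11 of incubation (E11), gene by gene. Its members are the Ensembl genes of the deposited table that pairs these stages. A gene entered when an entry of it reached an FPKM of 1 or more at P1, at E11 or at both, where FPKM is the number of sequenced fragments scaled to transcript length and to the mapped fragments of the library. Where several transcripts of a gene passed, the one with the highest mean FPKM stood for the gene. This left 11735 of the 16781 genes in the table, of which 1261 carry no symbol. Just inside the minimum lay an unnamed transcript with an FPKM of 0.578 at P1 and 1.00 at E11, and just outside it PDC, with 0.495 at P1 and 0.9999 at E11.

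The tissue came from Xinghua chickens, a slow-growing native Chinese meat breed, and no treatment was given at either stage. Both groups are labelled as female leg muscle, with 2 libraries of ribosome-depleted RNA at P1 and 2 at E11. A further 2 libraries at embryonic day 16 (E16) belong to the same series and are used below only to divide the interval. The deposited tables hold 1 FPKM per transcript and stage over both libraries, which leaves library-to-library variation unmeasured, so no test was made and every difference below is a description without a replicate check. The tables hold no read counts per gene, so no counting interval is given.

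Each value is given as FPKM, and each difference as a log2 ratio, log2((P1 + 0.1)/(E11 + 0.1)). A log2 ratio of 1 means 2-fold higher at P1 and one of -1 means 2-fold lower. The added 0.1 understates the differences of genes near 0. In whole tissue, fewer cells of a type and less RNA per cell cannot be told apart, and this holds for every group of genes below.

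In birds as in mammals, limb muscle arises from somite cells that migrate into the limb bud, divide as myoblasts under the transcription factors MYOD1, MYF5 and PAX7, leave the cell cycle and fuse into multinucleated fibers under myogenin (MYOG). Fused fibers then assemble sarcomeres, in which thin filaments of actin, tropomyosin and troponin slide along thick filaments of myosin. Many sarcomeric and metabolic proteins are encoded by several genes, one used mainly in embryonic or cardiac muscle and another in mature fast or slow fibers. Around hatching the chick starts to bear its weight and to regulate its own temperature, and its muscle relies more on mitochondrial oxidation.

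The E11 and P1 profiles differed widely. Of the 11735 genes, 2448 (20.9%) were at least 2-fold higher at P1 and 2384 (20.3%) at least 2-fold lower, while 6903 (58.8%) lay within 2-fold. At least 4-fold differences were found for 1070 genes (9.12%) higher and 1117 (9.52%) lower at P1, and at least 64-fold differences for 86 higher and 67 lower. The median log2 ratio was 0.03, with quartiles at -0.77 and 0.82. The minimum of 1 FPKM was reached at both stages by 10056 genes, at P1 only by 517 and at E11 only by 1162. Over the 10056 genes, 2017 (20.1%) were at least 2-fold higher and 1368 (13.6%) lower. A gene that passed at 1 stage only entered through the stage where it is high, and lists with many such members are marked below. These shares are the background against which each gene group below is read. The same rule applied to the other tables gave 13.3% higher and 11.9% lower for E16 over E11, and 10.9% higher and 10.2% lower for P1 over E16, comparisons that share libraries with this one.

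**Figure D1:**
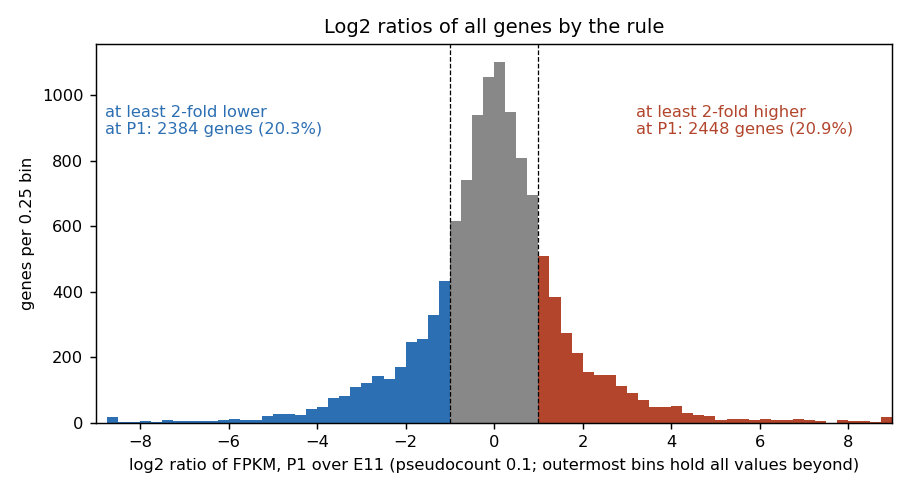
Number of genes (vertical axis) by log2 ratio of P1 over E11 (horizontal axis) for the 11735 genes, with the 2-fold limits marked. The distribution centres on 0.03, with 2448 genes at least 2-fold higher and 2384 at least 2-fold lower at P1.

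The balance of higher and lower genes depended on how the stages were scaled. A few muscle genes took up much of the RNA at P1. Among genes with a symbol, leaving out small and mitochondrial RNAs, the 10 most abundant at P1 made up 16.0% of the summed FPKM at P1 and 2.70% at E11, whereas the 10 most abundant at E11 made up 4.05% at P1 and 6.92% at E11. Small RNAs were recognised by the first letters of the symbol, which also took in protein-coding genes beginning with ACA, such as ACADL and ACAD9. Wherever small RNAs are left out below, these genes are left out with them. A rescaling left out the 50 genes with the highest mean FPKM, small RNAs and mitochondrial entries among them. Of 81 genes with a mean of 1000 FPKM or more, 41 were neither. Muscle genes with a lower mean, such as MYOZ1 (1271 FPKM at P1, 8.62 at E11), therefore stayed in the totals. Their part in the rescaling was not tested. When both stages were brought to the same total in this way, P1 values were multiplied by 0.625 and the median of all genes moved to -0.64. The split then became 1372 genes higher (11.7%) and 4338 lower (37.0%) at 2-fold, and 667 higher and 1799 lower at 4-fold. A single gene with a log2 ratio between 0 and 0.68 as given here is therefore higher at P1 under the authors' scaling and lower under the rescaling. Lists whose median turns sign or drops under 2-fold are named where they appear.

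The split differed between abundance classes. Among the 81 genes with a mean FPKM of 1000 or more, 50.6% were at least 2-fold higher at P1 and 2.47% lower. Without small RNAs recognised by symbol and mitochondrial entries, 41 genes remained in this class, with 43.9% higher and 2.44% lower. Among the 1618 genes with a mean under 2 FPKM, 15.9% were higher and 43.7% lower, a split that follows in part from the minimum, since genes that passed at E11 only are more frequent than genes that passed at P1 only. Longer loci also tended lower at P1, with a median log2 ratio of 0.20 over 838 genes at loci shorter than 2 kb and -0.40 over 347 genes at loci of 200 kb or more. A locus can hold several genes, such as HOXD8 and HOXD10, so its length is not that of a gene. The shortest class includes small RNAs and mitochondrial entries, and these medians were not recomputed without them.

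The most extreme genes were taken among those with a symbol, past 10 FPKM at 1 stage and above 0 at both. Entries without a symbol were not ranked. On the higher side the ranked genes were mostly muscle and fat genes. CKMT2, the creatine kinase of sarcomeric mitochondria (chromosome Z, positions 63574950 to 63597283, galGal4), stood at 353 FPKM at P1 and 0.164 at E11, a log2 ratio of 10.38. It was followed by LRRC2 (132 at P1, 0.0506 at E11) and by ANKRD2, a stretch-responsive ankyrin repeat protein of the sarcomere (103 at P1, 0.0613 at E11). The small nucleolar RNA SNORA8, the small heat shock protein HSPB7, the lipid droplet protein PLIN1, the transcription factor KLF9, the uncoupling protein UCP, PPP1R27 and the lipogenic factor THRSP completed the 10, with log2 ratios of 8.90 to 8.05. UCP, the avian mitochondrial uncoupling protein, had 58.8 FPKM at P1 and 0.114 at E11.

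On the lower side the list was headed by GAL10, a beta-defensin antimicrobial peptide gene (chromosome 3, positions 107053577 to 107056194). It stood at 0.273 FPKM at P1 and 685 at E11, a log2 ratio of -10.84. The genes for the retinoic acid binding proteins CRABP-I (0.318 at P1, 119 at E11) and CRABP2 (0.344 at P1, 98.5 at E11) followed with log2 ratios of -8.15 and -7.80. APOB, KRT8, CALML3, DSP, CALB1, SLC13A3 and KCNJ16 made up the rest, between -7.84 and -6.62. Of these, KRT8 and DSP belong to epithelial cells, CALB1, SLC13A3 and KCNJ16 are known from kidney tubules, and APOB from liver, yolk sac and kidney. The other markers of those tissues are given further on.

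Sarcomere lists had the highest medians among the lists of muscle and cell functions. Of 15 measured thin filament genes, 13 were at least 2-fold higher and 1 lower, with a median log2 ratio of 3.42. Of 18 measured genes of the thick filament and M band, 15 were higher and 1 lower (median 3.46), and of 18 measured Z disc genes, 17 were higher and 1 lower (median 4.28), all against backgrounds of 20.9% higher and 20.3% lower. Summed over the 51 genes of these lists, sarcomere transcripts held 17.3% of the FPKM at P1 and 1.90% at E11. This share, and the FPKM shares of other lists below, are over genes with a symbol without small and mitochondrial RNAs.

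ACTA1, the skeletal alpha-actin of the thin filament, was the most abundant of them, with 21146 FPKM at P1 and 192 at E11 (log2 ratio 6.78). The fast troponin genes were next. TNNT3, the fast troponin T that ties the complex to tropomyosin, had 12686 FPKM at P1 and 316 at E11, and TNNC2, the fast calcium-binding subunit, had 5661 at P1 and 326 at E11. NRAP, a scaffold of assembling myofibrils, stood at 553 FPKM at P1 and 10.7 at E11. The exception was TNNT2, the cardiac and embryonic troponin T, with 30.2 FPKM at P1 and 461 at E11 (log2 ratio -3.93).

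In the thick filament the light chains gave the highest levels. MYL1, the fast alkali light chain, had 4724 FPKM at P1 and 366 at E11, and MYL3, the slow one, had 3351 at P1 and 66.4 at E11. Myl2, a regulatory light chain, had 2668 at P1 and 237 at E11. MYLK2, the kinase that phosphorylates the skeletal regulatory light chain, had the largest difference, with 36.7 FPKM at P1 and 0.223 at E11 (log2 ratio 6.83). MYL4, the embryonic and atrial light chain, was the lower member, with 1.07 at P1 and 29.0 at E11. Among heavy chains, 6 of 9 in the table were measured and 4 were at least 2-fold higher, 1 of them MYH11, the heavy chain of smooth muscle (44.5 FPKM at P1, 8.21 at E11). MYH1A had 174 FPKM at P1 and 5.16 at E11, the slow MYH7 had 536 at P1 and 78.5 at E11, MYH7B had 307 at P1 and 28.5 at E11, and the nonmuscle MYH9 had 151 at P1 and 110 at E11.

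The account of the sarcomere is incomplete in 1 respect. Entries with too many fragments were not quantified by the authors' software and stand at 0 at P1. They include MYH1B (66.0 FPKM at E11), MYH1C (11.6), MYH1E (7.40), nebulin (NEB, 159) and a titin entry (261), besides the mitochondrial COX1 (3561 at E11). Their zeros are missing values and not low levels, and these entries were left out.

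At the Z disc, ACTN2, the alpha-actinin that crosslinks thin filaments, had 2744 FPKM at P1 and 116 at E11. MYOZ1, a fast-fiber partner of alpha-actinin and calcineurin, had 1271 at P1 and 8.62 at E11 (log2 ratio 7.19), and PDLIM3, another actinin partner, 1272 at P1 and 28.6 at E11. PDLIM7 was the lower member, with 5.25 FPKM at P1 and 12.2 at E11.

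Switches between isoform genes were followed in the 20 of 41 listed pairs in which both members were measured. Each pair holds a gene of mature or fast muscle and a counterpart used earlier, more widely or in slow or cardiac muscle. No background share was computed for pairs of genes. The counterpart is a relative of the same family except in RBFOX1 with PTBP1, splicing regulators of different families that differed by 1.97. In 17 of the 20 the ratio of the mature to the other member was at least 2-fold larger at P1, and in none at least 2-fold smaller. The median difference of log2 ratios within a pair was 2.38. The larger member of the pair was another gene at P1 than at E11 in 12 pairs. In 3 pairs the mature member was the larger at both stages, and in 5 the other member was.

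The switch took different forms. In 5 pairs the mature member was at least 2-fold higher at P1 and its counterpart at least 2-fold lower. TNNT3 made up 99.8% of the FPKM of TNNT3 and TNNT2 at P1 and 40.7% at E11. PFKM, the muscle phosphofructokinase, made up 98.97% of its pair with the liver form PFKL at P1 and 32.4% at E11. FBP2, the muscle fructose bisphosphatase, had 25.4 FPKM at P1 and 0.657 at E11, whereas the liver form FBP1 had 0.226 at P1 and 27.0 at E11, so that the share of FBP2 was 99.1% at P1 and 2.38% at E11. FBP2 passed the minimum at P1 only and FBP1 at E11 only, so the direction of this pair was set by its entry. CSRP3, a muscle LIM protein, had 280 FPKM at P1 and 10.7 at E11, against 4.06 at P1 and 9.92 at E11 for its relative CSRP2.

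In 7 further pairs both members were at least 2-fold higher at P1. TNNI2, fast troponin I, had 5352 FPKM at P1 and 144 at E11, and the slow TNNI1 had 612 at P1 and 225 at E11. TNNC2 took 70.6% of its pair with the slow and cardiac TNNC1 at P1 and 33.6% at E11, although TNNC1 itself had 2354 FPKM at P1 and 645 at E11. LDHA, the lactate dehydrogenase subunit of fast muscle, took 60.9% of its pair with LDHB at P1 and 30.1% at E11. MYOZ1 took 72.0% of its pair with the slow-fiber MYOZ2 at P1 and 19.3% at E11.

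In 6 pairs the mature member was higher while its counterpart stayed within 2-fold. ACTA1 took 98.0% of its pair with the cardiac actin ACTC1 at P1 and 39.4% at E11, and ACTC1 had 427 FPKM at P1 and 296 at E11. SLC25A4, the ADP/ATP exchanger of heart and muscle mitochondria, had 6952 FPKM at P1 and 30.4 at E11, whereas SLC25A6, its widely expressed relative, had 237 at P1 and 291 at E11. Dystrophin (DMD), which ties the cortical actin to the membrane, had 140 FPKM at P1 and 21.99 at E11, against 61.4 at P1 and 40.2 at E11 for utrophin (UTRN). The 3 pairs that differed by less than 2-fold were LAMA2 with LAMA4, HK2 with HK1 and CAV3 with CAV1, with differences of 0.65, 0.20 and -0.24.

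**Figure D2:**
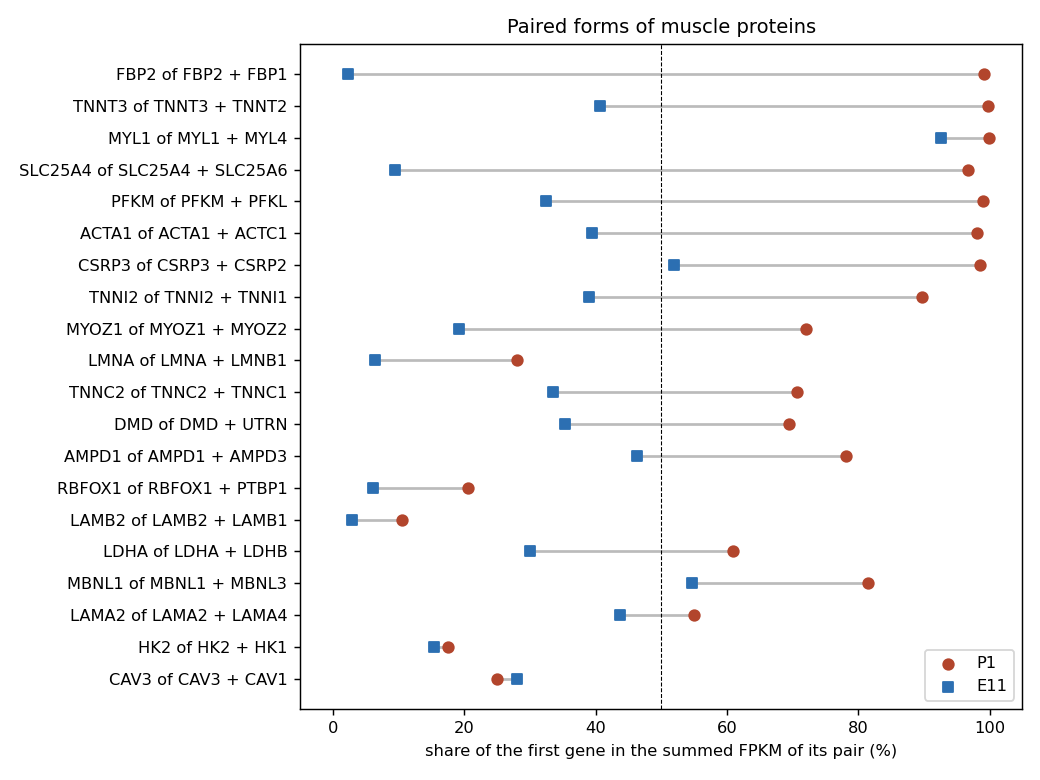
Share of the summed FPKM of each pair that belongs to the first-named, mature-muscle member, in percent, at P1 and at E11, for the 20 measured pairs. The share of FBP2 over FBP1 was 99.1% at P1 and 2.38% at E11, while CAV3 over CAV1 was near 25.1% at P1 and 28.1% at E11.

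Genes that link the surface membrane to contraction followed the sarcomere. Of 15 measured genes of excitation-contraction coupling, 12 were at least 2-fold higher at P1 and none lower (median log2 ratio 2.58). CASQ2, a calcium-binding protein of the sarcoplasmic reticulum, had 1218 FPKM at P1 and 79.4 at E11. TRDN, triadin, which anchors calsequestrin to the release channel, had 450 at P1 and 3.94 at E11, and PLN, phospholamban, the inhibitor of the calcium pump, had 432 at P1 and 4.47 at E11.

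Of 11 measured genes of sarcolemma excitability, 10 were higher and none lower (median 3.15). Of the 11, 2 passed the minimum at P1 only, SCN4A and CLCN1, so their direction was set by their entry. SCN4A, the voltage-gated sodium channel of skeletal muscle, had 43.5 FPKM at P1 and 0.0824 at E11, and CLCN1, the chloride channel that stabilises the resting potential, had 32.1 at P1 and 0.291 at E11. ATP1B4, a muscle relative of the sodium pump beta subunits, had 71.2 at P1 and 1.25 at E11.

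Of 21 measured genes of the dystrophin complex and membrane repair, 14 were higher and none lower (median 1.72). DMD (chromosome 1, positions 114233667 to 114932830), whose loss causes muscular dystrophy in humans, had a log2 ratio of 2.66. The sarcoglycan SGCB had 142 FPKM at P1 and 18.5 at E11, alpha-dystrobrevin (DTNA) had 190 at P1 and 15.8 at E11, and the muscle calpain CAPN3 had 89.7 at P1 and 2.11 at E11.

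The neuromuscular junction did not move as a block. Of 11 measured genes, 4 were at least 2-fold higher and 2 lower, with a median log2 ratio of 0.61 that turned to -0.07 under the rescaling. Subunits of the acetylcholine receptor differed in direction, with CHRND at 43.1 FPKM at P1 and 12.2 at E11 and CHRNA1 at 18.1 at P1 and 38.6 at E11. Agrin (AGRN), an organiser of the synapse, had 3.61 at P1 and 7.46 at E11, and COLQ, the collagen tail of acetylcholinesterase, had 9.79 at P1 and 2.64 at E11.

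Factors of the myogenic program also divided. Of 19 measured genes, 5 were at least 2-fold higher and 4 lower (median 0.53, or -0.14 under the rescaling). MYOD1, the master factor of the lineage, had 115 FPKM at P1 and 45.0 at E11, and MYF6, the family member of mature fibers, had 23.2 at P1 and 3.91 at E11. MEF2C, their partner in activating sarcomere genes, had 111 at P1 and 47.5 at E11. The genes that act at differentiation and fusion were lower at P1, with MYOG at 1.72 FPKM at P1 and 14.2 at E11 and TMEM8C, the fusion protein myomaker, at 0.597 at P1 and 9.52 at E11. Of the genes that the study followed up besides DMD, DLK1, a Notch-like regulator of progenitors, had 6.76 at P1 and 4.36 at E11. TEAD4, a myogenic target factor of the Hippo pathway, had 37.1 at P1 and 21.2 at E11, and FGF13, an intracellular partner of sodium channels, had 26.1 at P1 and 5.24 at E11.

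Most measured genes of the energy metabolism lists were higher at P1. Of 35 measured genes of glycolysis and glycogen, 24 were at least 2-fold higher and 3 lower (median log2 ratio 2.45). GAPDH had 4360 FPKM at P1 and 661 at E11, TPI1 had 1625 at P1 and 196 at E11, and PPP1R3C, a phosphatase subunit that promotes glycogen synthesis, had 107 at P1 and 1.61 at E11. The lower genes include the liver forms FBP1 and PFKL, given with the isoform pairs.

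Of 30 measured genes of pyruvate dehydrogenase and the tricarboxylic acid cycle, 27 were higher and 1 lower (median 2.68). MDH1, the cytosolic malate dehydrogenase, had 768 FPKM at P1 and 61.6 at E11. PDK4, the kinase that switches pyruvate dehydrogenase off and spares glucose, had 625 at P1 and 2.36 at E11 (log2 ratio 7.99). OGDHL was the lower member, with 0.234 at P1 and 4.53 at E11.

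Of 30 measured genes of fatty acid uptake and oxidation, 24 were higher and 1 lower (median 2.47). FABP3, the fatty acid carrier of heart and muscle, had 2929 FPKM at P1 and 37.3 at E11, and CD36, the membrane transporter, had 426 at P1 and 5.39 at E11. The acyl-CoA dehydrogenases ACAD9 (1334 at P1, 76.0 at E11) and ACADL (697 at P1, 48.8 at E11) were also among the most abundant. ACAT2, a cytosolic thiolase of sterol synthesis, was the lower member, with 4.03 at P1 and 25.8 at E11.

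The nuclear genes of the respiratory chain were higher with few exceptions. At least 2-fold higher at P1 were 31 of 34 measured genes of complex I, 3 of 3 of complex II, 5 of 5 of complex III, 6 of 7 of complex IV and 10 of 12 of the ATP synthase, and none was at least 2-fold lower. Their medians lay between 2.54 and 3.23. Together these 61 genes held 5.33% of the FPKM at P1 and 1.22% at E11, over the same genes as the sarcomere share. COX4I1, a core-associated subunit of complex IV, had 1651 FPKM at P1 and 177 at E11. UQCR11, a small subunit of complex III, had 664 at P1 and 30.3 at E11, and ATP5B, the catalytic beta subunit of the ATP synthase, had 966 at P1 and 142 at E11.

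The mitochondrial genome showed a like difference. Of its 22 measured entries, the 12 with a symbol had log2 ratios of 2.25 to 2.97 with a median of 2.70. COX3 had 34870 FPKM at P1 and 5273 at E11. The entries without a symbol ranged from 0.12 to 16.28, the highest of them listed at 0 at E11. Several of the entries with a symbol share a locus in the table and are not independent values.

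The creatine system stores and shuttles the energy of ATP. Of its 15 measured genes with high-energy phosphate handling, 10 were higher and 2 lower (median 1.94). AK1, adenylate kinase of muscle, had 571 FPKM at P1 and 20.8 at E11. The lower members were CKB, the brain-type creatine kinase, with 14.4 at P1 and 41.7 at E11, and AK4, with 1.00 at P1 and 5.68 at E11. Of 58 mitochondrial ribosomal protein genes 35 were higher and none lower (median 1.15, or 0.48 under the rescaling). Of the 65 measured cytosolic ribosomal proteins 2 were higher and none lower. Their median was 0.10, or -0.58 under the rescaling, and their share of the FPKM was 11.5% at P1 and 17.5% at E11. The largest ratio among them was that of RPL3L, the paralog of RPL3 restricted to striated muscle in mammals, with 30.1 FPKM at P1 and 0.205 at E11.

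Regulators of fiber type and mitochondrial biogenesis were higher by less. Of 29 measured genes, 16 were at least 2-fold higher and none lower, with a median of 1.03, or 0.35 under the rescaling. PERM1, a muscle partner of the PGC-1 and ERR factors, had 15.0 FPKM at P1 and 0.393 at E11, and PRKAA2, the muscle catalytic subunit of the energy sensor AMPK, had 31.7 at P1 and 2.78 at E11. TFAM, which packages and transcribes mitochondrial DNA, had 51.5 at P1 and 32.5 at E11.

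The hormone and fasting lists differed from each other. Of 27 measured genes of the glucocorticoid, fasting and protein breakdown list, 19 were at least 2-fold higher and 2 lower (median 2.59). ZBTB16, a glucocorticoid-induced transcription factor in mammals, had 16.4 FPKM at P1 and 0.101 at E11. The muscle ubiquitin ligases FBXO32 (79.1 at P1, 3.09 at E11) and TRIM63 (114 at P1, 5.76 at E11), added here to the genes chosen by rule after their values were seen, mark protein breakdown in wasting muscle. The glucocorticoid receptor NR3C1, likewise added, had 24.6 at P1 and 24.5 at E11. The amino acid response factor ATF4 had 265 at P1 and 187 at E11, and its target ASNS, asparagine synthetase, had 3.98 at P1 and 11.6 at E11.

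The thyroid hormone list had a median of -0.00 over 11 measured genes, with 3 higher and 4 lower. Of the 11, 2 passed the minimum at P1 only and 2 at E11 only, so their direction was set by their entry. KLF9, THRSP and DIO1 are among these. The highest ratios belonged to KLF9, a factor induced by the hormone in mammals, at 128 FPKM at P1 and 0.345 at E11, and THRSP, at 43.6 at P1 and 0.0652 at E11. The receptor THRA had 40.6 at P1 and 9.10 at E11. The deiodinase DIO1 had 0.478 at P1 and 3.41 at E11. THRSP is also a gene of fat cells, whose markers are given below.

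The growth hormone and IGF list was close to the background, with 4 of 17 measured genes higher and 2 lower (median 0.20, or -0.47 under the rescaling). The growth hormone receptor GHR had 58.7 FPKM at P1 and 24.4 at E11. IGFBP7 had 133 at P1 and 16.3 at E11, GRB10, an inhibitor of insulin signalling, 53.3 at P1 and 7.69 at E11, and IGFBP4 36.3 at P1 and 69.3 at E11. In the circadian clock list 7 of 14 measured genes were higher and none lower (median 0.98, or 0.31 under the rescaling), among them CLOCK with 38.8 at P1 and 4.76 at E11 and BHLHE40 with 15.4 at P1 and 1.33 at E11. The hour of sampling is not given in the sources used here.

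Genes of cell division formed the largest low block at P1. Of 82 measured genes of mitosis and the kinetochore, 74 were at least 2-fold lower and none higher, with a median log2 ratio of -2.80, beside the background of 20.3% lower, and 14 of the 82 passed the minimum at E11 only. Of 53 measured genes of DNA replication, 39 were lower and none higher (median -1.75), and 8 of the 53 passed the minimum at E11 only. The mitosis list held 0.0916% of the FPKM at P1 and 0.792% at E11, over the same genes as the sarcomere share.

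CDK1, the kinase that starts mitosis, had 9.95 FPKM at P1 and 114 at E11, and PLK1, which acts on the spindle and centrosome, had 2.11 at P1 and 41.1 at E11. CenpA, the histone variant of centromeres, had 0.164 at P1 and 4.27 at E11. TOP2A, the topoisomerase that untangles chromosomes, had 6.95 at P1 and 114 at E11, and the replication clamp PCNA had 28.9 at P1 and 97.3 at E11. CCND1, cyclin D1, was among the few members within 2-fold, with 41.5 at P1 and 63.2 at E11.

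Lists tied to division showed the same direction. Of 36 measured DNA repair genes, 25 were at least 2-fold lower and 1 higher (median -1.43). Of the 36, 9 passed the minimum at E11 only, so their direction was set by their entry. BRCA1 had 2.32 FPKM at P1 and 26.9 at E11, and EXO1, an exonuclease of mismatch and recombination repair, had 0.894 at P1 and 14.0 at E11. NBN, a sensor of strand breaks, was the higher member, with 12.7 at P1 and 4.12 at E11. Of 32 measured genes of chromatin and the nuclear lamina, 21 were lower and 1 higher (median -1.13), with HMGA1, an architectural factor of embryonic chromatin, at 132 at P1 and 344 at E11 and the DNA methyltransferase DNMT3B at 0.122 at P1 and 2.99 at E11. B-type lamin LMNB1 had 7.79 at P1 and 58.0 at E11, while lamin A (LMNA) had 3.04 at P1 and 3.98 at E11.

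The inhibitors of division were mixed. Of 17 measured genes, 6 were higher and 2 lower (median 0.47, or -0.20 under the rescaling). BTG2 (66.1 FPKM at P1, 6.996 at E11) and TOB2 (45.7 at P1, 6.38 at E11), both antiproliferative proteins of 1 family, were the highest by ratio. CDKN1B, the inhibitor p27, had 60.2 at P1 and 48.8 at E11. The lower members were GAS2, with 3.93 at P1 and 30.1 at E11, and RBL1, the pocket protein p107 of dividing cells, with 4.08 at P1 and 16.5 at E11. Of 17 measured genes of the let-7 axis and embryonic RNA binders, 5 were lower and none higher (median -0.43). LIN28B, which blocks let-7 maturation, had 0.0520 at P1 and 1.66 at E11, and the oncofetal RNA binder IGF2BP1 had 6.07 at P1 and 22.5 at E11.

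**Figure D3:**
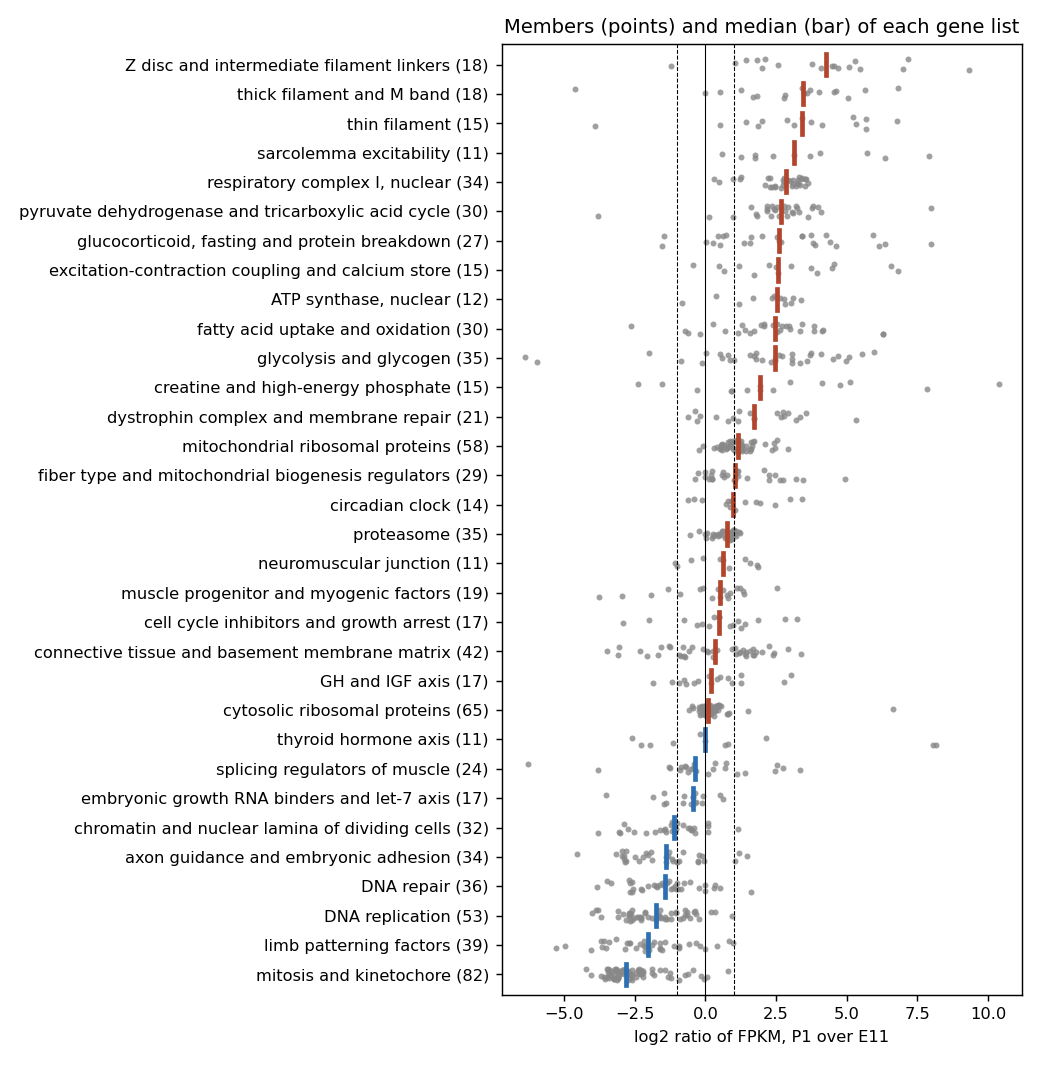
Log2 ratio of P1 over E11 (horizontal axis) of each measured member of the gene lists, 1 point per gene and 1 line of points per list, with the median marked. Medians run from 4.28 for the Z disc genes to -2.80 for the genes of mitosis and the kinetochore among the lists of muscle and cell functions.

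Many factors that pattern the limb were lower at P1. Of 39 measured genes, 29 were at least 2-fold lower and none higher (median log2 ratio -2.03), and 17 passed the minimum at E11 only, so their direction was set by their entry. SHH, the signal of the posterior limb margin, and LHX9 were listed at 0 at P1, with 3.85 and 3.05 FPKM at E11. PRRX1, a factor of limb mesenchyme, had 9.88 at P1 and 40.5 at E11. PITX1 and TBX4, which specify the hind limb and were added after their values were seen, had 2.17 and 0.564 at P1, against 11.1 and 4.22 at E11. TBX15, known from muscle fibers and limb skeleton in the mouse, was the most abundant member, with 54.6 at P1 and 28.0 at E11.

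Hox genes, which assign position along the body and limb, did not share 1 direction. Of 19 measured, 12 were at least 2-fold lower and 2 higher (median -1.53), and 7 passed the minimum at E11 only. HOXC6 had 1.12 FPKM at P1 and 6.37 at E11 and HOXD8 had 4.29 at P1 and 15.3 at E11. HOXB4 had 13.5 at P1 and 5.48 at E11, HOXA7 had 18.0 at P1 and 7.64 at E11, and HOXC10, a gene of hind limb level, had 28.5 at P1 and 21.3 at E11.

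Of 34 measured genes of axon guidance and embryonic adhesion, 23 were lower and 3 higher (median -1.41). MDK, the growth factor midkine of embryonic tissues, had 5.75 FPKM at P1 and 138 at E11, CDH11, the cadherin of mesenchyme, 21.8 at P1 and 158 at E11, and DCX, a microtubule protein of migrating cells, 7.49 at P1 and 67.6 at E11. The higher members were NRP1 (119 at P1, 57.0 at E11) and SEMA3C (97.9 at P1, 43.0 at E11), a receptor and a ligand of the semaphorin system, and CDH4 (13.5 at P1, 4.86 at E11).

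The matrix list was mixed, with 19 of 42 measured genes higher and 9 lower (median 0.34, or -0.34 under the rescaling). COL3A1, a fibrillar collagen of loose connective tissue, had 1436 FPKM at P1 and 525 at E11, and COL1A2 had 1047 at P1 and 864 at E11. The basement membrane collagens COL4A1 (555 at P1, 106 at E11) and COL4A5 (98.1 at P1, 12.8 at E11) and elastin (ELN, 86.4 at P1, 8.22 at E11) were higher. FBN3, a fibrillin of embryonic tissues, had 7.396 at P1 and 84.3 at E11, col14A1 had 11.2 at P1 and 96.3 at E11, and COL17A1, the collagen of epidermal hemidesmosomes, had 0.0707 at P1 and 6.39 at E11.

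Splicing regulators of muscle had a median of -0.37 over 24 measured genes, with 6 higher and 4 lower. RBM38 had 183 FPKM at P1 and 18.0 at E11 and RBM24, which promotes muscle exons, had 291 at P1 and 135 at E11. PTBP3 had 0.387 at P1 and 6.68 at E11, and ESRP2, an epithelial regulator, was listed at 0 at P1 and at 7.67 at E11. MBNL1 and MBNL3 had 61.1 and 13.9 FPKM at P1, against 23.0 and 19.0 at E11, and MBNL3 had a log2 ratio of -0.45 by its most abundant transcript and of 0.14 with transcripts summed.

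Markers of other cell types moved between the stages too, and their part in the results above was not tested. Fat cell markers stood higher, with 12 of 15 measured genes at least 2-fold higher and 2 lower and a summed level of 2737 FPKM at P1 and 101.8 at E11. Of the 15, 3 passed the minimum at P1 only, PLIN1 among them, and 1 at E11 only, so their direction was set by their entry. FABP4 had 696 at P1 and 4.95 at E11, PLIN1, the coat protein of lipid droplets, 82.7 at P1 and 0.163 at E11, and PNPLA2, a triglyceride lipase also active in muscle, 553 at P1 and 4.74 at E11. The synthesis enzymes FASN (6.91 at P1, 23.1 at E11) and SCD (0.933 at P1, 2.78 at E11) were the lower members. PLIN1 is also among the 10 highest ratios above.

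Vessel markers were higher as well, while nerve markers divided. Among 10 measured Schwann cell markers 6 were higher and 3 lower, and 2 passed the minimum at P1 only and 1 at E11 only. The myelin genes MBP (176 FPKM at P1, 1.54 at E11) and PMP22 (163 at P1, 16.5 at E11) were on the high side, and FABP7 (4.15 at P1, 92.9 at E11) and NGFR (0.706 at P1, 8.12 at E11), genes of immature Schwann cells, on the low side. Of 7 measured neuron markers 6 were lower and none higher, and 5 passed the minimum at E11 only. Endothelial markers had 9 of 17 higher and none lower (median 1.16, or 0.49 under the rescaling), with PECAM1 at 216 at P1 and 37.9 at E11, and smooth muscle and pericyte markers had 6 of 10 higher and none lower.

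Epidermis, kidney and skeleton markers were lower at P1. Of 15 measured epidermis and epithelium markers, 14 were at least 2-fold lower and none higher, and 10 passed the minimum at E11 only. Their summed level was 13.2 FPKM at P1 and 192 at E11, with CLDN4 listed at 0 at P1. The desmosomal DSP had 0.189 at P1 and 33.3 at E11 and the basal keratin KRT14 had 1.06 at P1 and 29.7 at E11. Of 13 measured kidney tubule markers, 12 were lower and 1 higher, but 11 passed the minimum at E11 only and so had to be lower at P1. The kidney list summed to 37.2 at P1, of which PODXL, also a gene of vessels, gave 32.9, and to 166 at E11, with SLC34A1 among the members listed at 0 at P1 and AQP2 listed at 0 at both stages. CALB1 had 0.171 at P1 and 30.4 at E11, and LRP2 had 0.942 at P1 and 31.0 at E11. These genes overlap the lowest ratios above, among them DSP, CALB1 and SLC13A3, and the lower glycolysis gene FBP1 is also known from kidney.

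Cartilage markers had 13 of 16 measured genes lower and 2 higher, 8 of them past the minimum at E11 only, with summed levels of 197 FPKM at P1 and 292 at E11 and MATN1 listed at 0 at P1. COL11A1, a fibrillar collagen of cartilage, had 39.4 at P1 and 143 at E11, and the higher members were COMP (87.2 at P1, 2.63 at E11) and CHAD (33.9 at P1, 1.35 at E11). Bone markers had 6 of 7 lower and 1 higher, 5 of them past the minimum at E11 only, and summed to 10.6 at P1 and 46.9 at E11. Tendon markers divided, with KERA at 1.56 at P1 and 119 at E11, FMOD at 82.3 at P1 and 8.29 at E11 and TNMD, the tenocyte marker tenomodulin, at 41.8 at P1 and 42.1 at E11.

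Blood markers differed little in summed FPKM, but their share of the FPKM was lower at P1. The red cell list summed to 1134 FPKM at P1 and 1344 at E11, with HBAA, an alpha-type globin, at 580 at P1 and 699 at E11. Its share was 0.256% at P1 and 0.533% at E11, over the same genes as the sarcomere share. Of 12 measured red cell genes, 2 were at least 2-fold higher and 3 lower, and 1 passed the minimum at P1 only and 2 at E11 only. The higher members were TFRC (92.7 at P1, 19.7 at E11) and SPTB (27.6 at P1, 11.1 at E11). Globins of the early embryo were lower, with HBE at 0.461 at P1 and 6.68 at E11 and HBG1 listed at 0 at P1 and at 16.6 at E11. HBZ was listed at 0 at both stages. Leukocyte markers summed to 52.5 at P1 and 56.4 at E11, or 0.0118% of the FPKM at P1 and 0.0224% at E11. Of 14 measured leukocyte genes, 3 were higher and 4 lower, and 3 passed the minimum at E11 only. Liver genes had no shared direction, with APOA1, which chick muscle is known to express, at 474 at P1 and 73.4 at E11, APOB at 0.0255 at P1 and 28.6 at E11 and TTR listed at 0 at P1 and at 36.4 at E11.

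**Figure D4:**
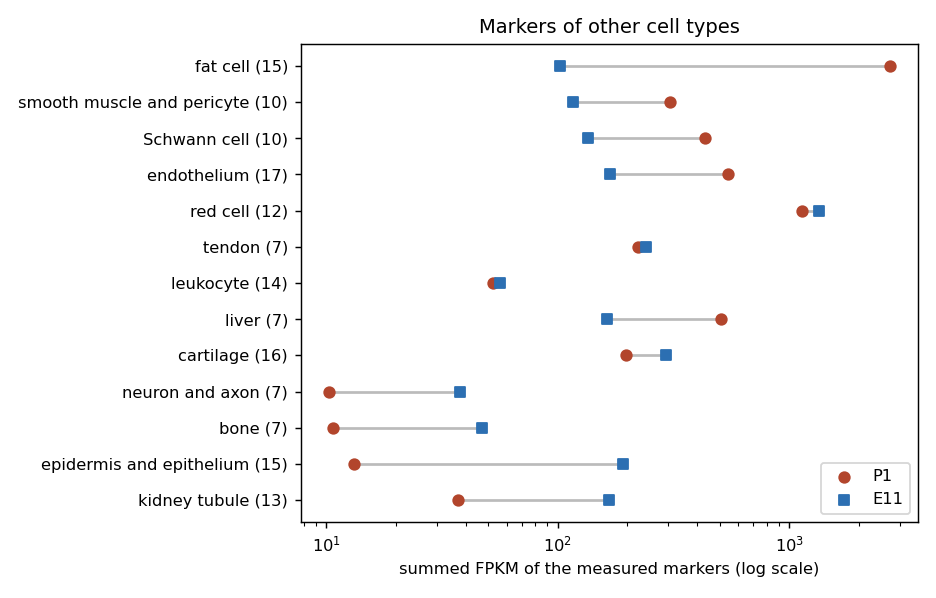
Summed FPKM of each marker list of another cell type (logarithmic axis) at P1 and at E11. The fat cell list stood at 2737 FPKM at P1 and 101.8 at E11, whereas the epidermis list stood at 13.2 at P1 and 192 at E11.

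The sex chromosomes showed a difference that the labels do not describe. All libraries are labelled female, and hens carry 1 Z and 1 W chromosome. The 550 measured genes of chromosome Z had a median log2 ratio of 0.34, with 349 above 0, against 0.01 for the numbered autosomes. The 6 measured entries of chromosome W had a median of -0.83, with 1 above 0 and 5 under 0. HINTW, a W-linked gene on an unplaced sequence, had 216 FPKM at P1 and 734 at E11. The other tables, each filtered by the same rule, gave 0.06 for Z and 0.37 for W in E16 over E11, and 0.30 and -0.95 in P1 over E16. Values per library were not analysed here, and the part of the sex chromosomes in the results was not tested beyond leaving them out. Without Z and W, 20.5% of genes were at least 2-fold higher and 20.4% lower.

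The middle stage divides the interval, and its medians below are over the members of each list that the tables hold at all 3 stages. The steps share the E16 values, so an error in them would enter both with opposite sign. Sarcomere lists took most of their difference before E16. The thin filament list had a median of 3.56 for E16 over E11 and 0.37 for P1 over E16, and the Z disc list 2.69 and 0.71. Fat cell markers (2.45, then 0.37), the dystrophin complex (1.62, then 0.01), epidermis markers (-4.50, then -0.41), kidney markers (-4.43, then -0.21) and limb patterning factors (-1.99, then 0.01) had the same course.

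Most energy lists divided their difference evenly or had the larger part after E16, whereas the creatine and high-energy phosphate list had 2.18 and 0.39. Complex I had medians of 1.35 and 1.39, pyruvate dehydrogenase and the tricarboxylic acid cycle 1.17 and 1.51, and the glucocorticoid, fasting and protein breakdown list 0.73 and 1.69. UCP is the clearest late gene among the 10 highest, with 0.57 for E16 over E11 and 7.50 for P1 over E16, and SLC25A4 had 3.04 and 4.79. KLF9 had 3.40 and 4.82 and PDK4 had 4.35 and 3.65.

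The genes of mitosis also differed mainly in the second step, with a median of -0.78 for E16 over E11 and -1.98 for P1 over E16, whereas DNA replication was even, with -0.77 and -0.96. MYOG (-0.18, then -2.78), TMEM8C (-0.81, then -2.94) and TNNT2 (-0.58, then -3.34) were low late as well. FGF13 (3.21, then -0.91), TEAD4 (1.15, then -0.34) and DLK1 (1.25, then -0.62) stood highest at E16, and so did DMD by a small margin (2.78, then -0.11). COL3A1 (1.81, then -0.36) and MBP (7.25, then -0.47) had their highest values at E16 as well, and the cytosolic ribosomal proteins had medians of 0.51 and -0.39.

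**Figure D5:**
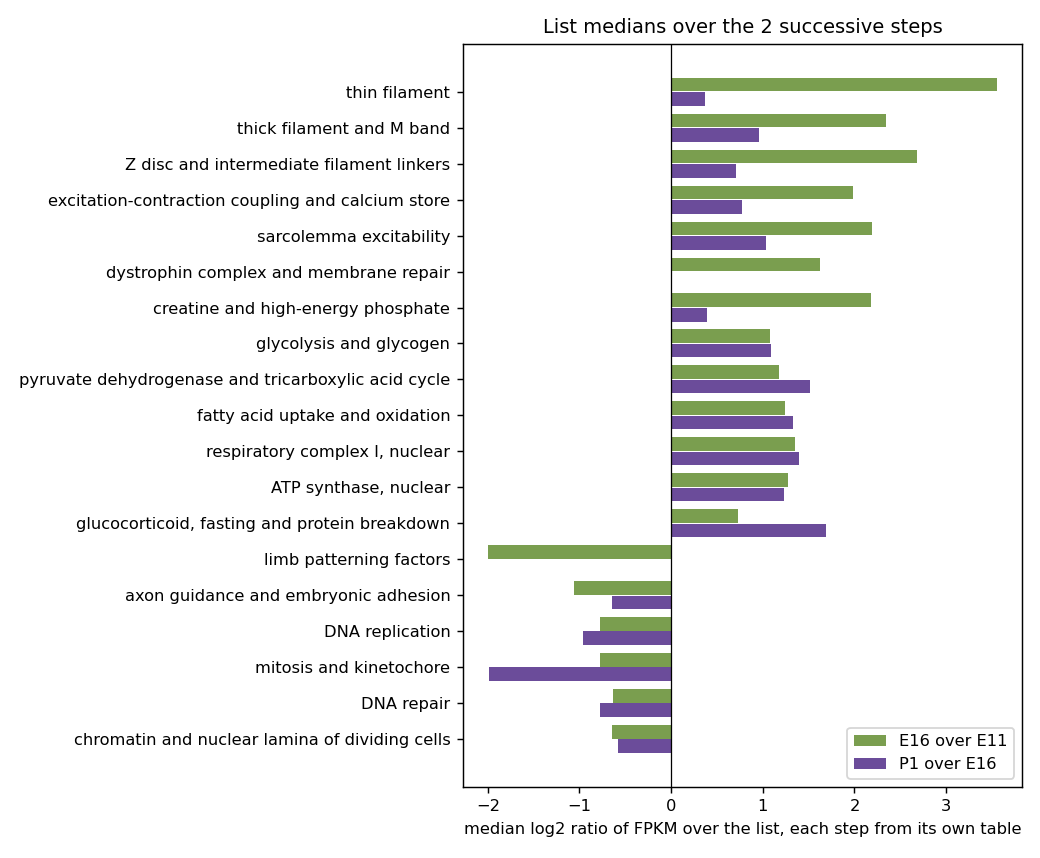
Median log2 ratio (horizontal axis) of selected gene lists (vertical axis) in the 2 successive steps. Each list has 1 bar for E16 over E11 and 1 for P1 over E16, over the same members. The thin filament list has medians of 3.56 and 0.37, complex I 1.35 and 1.39, and mitosis -0.78 and -1.98.

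Small RNAs, mitochondrial entries and ACTA1 were among the 10 most abundant entries with or without a symbol at P1. 7SK, a brake on transcription elongation, had 175453 FPKM at P1 and 84591 at E11, and U1, of the spliceosome, had 69490 at P1 and 50874 at E11. Of 165 entries recognised by symbol as small RNAs, protein-coding genes beginning with ACA among them, 58 were at least 2-fold higher and 32 lower. Some small RNAs are listed at 0 at 1 stage and very high at the other, such as SNORD66, at 2047 at P1 and listed at 0 at E11, and SNORD65, listed at 0 at P1 and at 842 at E11. A 0 of such a short entry can be a failed estimate, so these values carry no fold. Among protein-coding genes, the translation factor EF1A had 782 at P1 and 2057 at E11, and the ribosomal RPL23 had 3663 at P1 and 2521 at E11.

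Neighbouring genes shared a direction a little more often than not. Entries recognised by symbol as small RNAs and mitochondrial entries were left out of the pairs and runs given here. Protein-coding genes beginning with ACA were left out with them. Of the pairs of consecutive measured genes at different loci, 8147 overlapped or lay within 50 kb. Both genes differed at least 2-fold in 1346 of these pairs, and in 785 of the 1346 (58.3%) they differed in the same direction. There were 45 runs of 3 or more consecutive measured genes that differed at least 4-fold in 1 direction, 17 higher and 28 lower at P1. A run of fatty acid binding protein genes on chromosome 2, positions 121148557 to 121228944, held FABP5 (637 FPKM at P1, 30.9 at E11), PMP2 (40.1 at P1, 0.0545 at E11) and FABP4. On the low side, the longest run lay on chromosome 1, positions 47926959 to 48018082, with 6 entries at 3 loci between -3.59 and -2.09. Only the histone gene HIST1H46 among them carries a symbol. The Iroquois factors IRX4, irx2 and IRX1, transcription factors of embryonic patterning, formed another low run on chromosome 2, positions 86065381 to 87135061, between -4.72 and -4.50. The runs named here were chosen after their values were seen, and genes of 1 family can share reads.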

How the data were processed

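Long RNA of chicken leg muscle was sequenced from 2 libraries per stage at E11, E16 and P1. The authors removed ribosomal RNA and low-quality reads, aligned reads with TopHat2 to galGal4 with Ensembl annotation, and assembled transcripts with Cufflinks. The study names Cuffnorm for expression levels and Cuffdiff for testing, and the tables have the layout of Cuffdiff output. The submitters' processing notes also name Trim Galore and Bowtie, without versions. The deposited values are FPKM, made by the authors as 1 value per transcript and stage over both libraries, and scaled separately in each of 3 tables of paired stages. The authors' log2 fold changes, test statistics, p-values and q-values in the same tables were not used. The tables hold no read counts, so the counting precision of a value could not be computed. The study's read totals per library were not used. The stage of each library came from the labels.

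Ratios were computed with Python 3.11.15, numpy 2.4.6 and pandas 2.3.3, and plotted with matplotlib 3.10.9. Of 19937 entries, 1995 lncRNA entries were not used and 16 Ensembl transcripts marked HIDATA (too many fragments) were left out, while 12269 Ensembl transcripts passed the minimum of 1 FPKM. A pseudocount of 0.1 was added before logs. Lists of genes (40, of which 13 mark other cell types, with 1110 distinct genes in all and 856 measured) and 14 families matched by symbol were read by counts and medians. Members and lists were chosen with earlier results of these data known. Named genes were first the 10 highest and lowest ratios past 10 FPKM, among genes with a symbol above 0 at both stages. To these came the 3 most abundant and the 2 most extreme members of each list in each direction, and the isoform pairs. The 10 most abundant genes, up to 5 genes listed at 0 per direction, and 4 genes that the study followed up were also named. PITX1, TBX4, NR3C1, FBXO32, TRIM63, EF1A, HINTW, the unquantified entries and the genes of neighbouring runs were named after their values were seen. Positions are those of the tables (galGal4), counted from 1, and strand was not used. The calculation was tested on simulated data. Of 10 alternatives, 9 were listed at the start and 1 was added after the data were seen. A planned search of promoter sequences was not run, since no chicken genome of this build was used here.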

Additional observations from a re-analysis of the deposited data

How the results depend on the processing

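No paired analysis was possible because the tables hold 1 value per stage over both libraries, and for the same reason no library could be left out in turn. A value is said to move where it shifts by more than 1.5-fold (0.58 on the log2 scale for medians), since the spread between libraries is unknown. Across 10 alternatives no called value turned its direction, and the cause of the shifts below was not tested. For a single gene past 2-fold much of this was fixed in advance. A changed pseudocount cannot turn a sign, and leaving out Z and W changes no ratio. Centring shifts a log2 ratio by 0.03 and rescaling lowers it by at most about 0.68. The absence of a turn under these alternatives is therefore no check on such genes. Rescaling left out the 50 most abundant genes, small RNAs and mitochondrial entries among them. It gave 1372 genes at least 2-fold higher and 4338 lower, 667 and 1799 at 4-fold, and a median of all genes of -0.64. A larger FPKM of 5 or more, which keeps fewer genes, gave 1414 genes lower at 2-fold and 612 at 4-fold, and a pseudocount of 1 gave 521 lower at 4-fold.

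List medians were compared after subtracting the median of all genes. With a pseudocount of 1 the difference moved to 2.46 for sarcolemma excitability, -1.37 for limb patterning, -1.57 for bone, -2.64 for epidermis, -2.66 for kidney, 1.33 for Schwann cells, -1.86 for neurons and -3.33 for keratins. With a pseudocount of 0.01 it moved to -4.58 for bone, -7.04 for kidney and -6.50 for keratins. With no filter it was 2.44 for sarcolemma excitability, -2.60 for bone, -3.88 for kidney, 1.31 for Schwann cells, -1.15 for neurons and -2.88 for keratins. With a mean FPKM of 1 or more it was -5.87 for kidney and -6.18 for keratins. With a larger FPKM of 5 or more it was -5.42 for epidermis, -6.06 for kidney, -2.17 for neurons, -0.49 for Hox genes and -6.29 for keratins. Of 326 named genes, 276 lay past 2-fold, of which 30 dropped under it when rescaled, 5 with a pseudocount of 1 and 2 with transcripts summed. None of the 17 isoform pairs past 2-fold dropped under it in an alternative that measured the pair. Chaining the ratio over E16 moved a gene by a median of 0.0054. Leaving out chromosomes Z and W, added after the data were seen, left 2294 genes higher and 2285 lower.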

Other observations

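Genes were also grouped by the letters that their symbols share, which gave 250 families with 6 or more measured members, and 23 of these had a median log2 ratio of 1 or more and 16 of -1 or less. On the high side, 10 of 15 measured ASB genes, substrate receptors of ubiquitin ligases of which several are muscle genes, were at least 2-fold higher at P1 and 2 lower (median 2.41). The COQ genes of coenzyme Q synthesis had 7 of 8 higher and none lower (median 2.08), and the TIMM genes of mitochondrial protein import 6 of 8 higher and none lower (median 1.40). Of 12 KLF transcription factors 9 were higher and 1 lower (median 1.48), and of 14 ATP6V genes of the proton pump of lysosomes 7 were higher and none lower (median 1.12). Of 19 DUSP genes, most of them phosphatases of MAP kinases, 10 were higher and 1 lower (median 1.06). Family medians were not recomputed under the rescaling, which lowers a log2 ratio by about 0.68. Those of TIMM, KLF, ATP6V and DUSP can drop under 2-fold there.

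On the low side, 18 of 29 KIF motor genes were at least 2-fold lower at P1 and 1 higher (median -1.46), and the MCM genes, most of them of the replication helicase, had 6 of 7 lower and none higher (median -2.64). Receptors of embryonic signals were low as well, with 4 of 6 EPHA genes lower and 1 higher (median -2.43) and 4 of 7 frizzled genes lower and none higher (median -1.41). Of 14 cadherins 8 were lower and 3 higher (median -1.04), and of 10 matrix metalloproteinases 6 were lower and none higher (median -1.07). These families were chosen from their values and carry no test.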
